A study of Homo sapiens with 30 samples.

Results

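The receptor SMADs and SMAD4 are the proteins that carry a BMP or TGF-beta signal from the receptors at the cell surface to the genes in the nucleus. Every probe whose gene name on the array was SMAD1, SMAD2, SMAD3, SMAD4, SMAD5 or SMAD9 was taken, which gave 6 of the 30484 gene names on the array and 11 of its 41000 probes. SMAD1 and SMAD3 had 2 probes each, SMAD2 had 4, and SMAD4, SMAD5 and SMAD9 had 1 each. The genes were taken by name, with the response of SMAD9 in some lines already known from these arrays. In all, 5 established lines from human breast cancers, ZR-75-30, SK-BR-3, HCC1419, MDA-MB-361 and HCC1954, had been exposed to recombinant human BMP4 or to vehicle and collected after 30 min and after 1, 3, 6, 12 and 24 h. Each of the 30 arrays set 1 BMP4-treated RNA (Cy5) against the vehicle-treated RNA of the same line and time (Cy3), and each RNA was a pool of 3 cultures. The dyes were not swapped, and a time point had 5 arrays, 1 for each line, so its spread is the spread between lines.

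In the canonical pathway, BMP receptors phosphorylate SMAD1, SMAD5 and SMAD9 (also known as SMAD8), whereas the activin and TGF-beta receptors phosphorylate SMAD2 and SMAD3. A phosphorylated receptor SMAD joins the common partner SMAD4, and the complex enters the nucleus and binds regulatory DNA. The inhibitory SMADs, SMAD6 and SMAD7, are classical targets of the same signal and dampen it. The arrays measured mRNA and not the phosphorylation by which these proteins are activated.

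Most markers of the labelled cell type were measured. Of 9 probes for epithelial genes, 7 (EPCAM, KRT8, KRT19 and 3 of KRT18) were well above background on 30 of 30 arrays, the cadherin CDH1 on 24 and the fourth KRT18 probe on 12, and all 3 probes for ERBB2 and its neighbour GRB7 were on 30. Of 7 probes for genes of other cell types, both for the leukocyte gene PTPRC were on 0 arrays, the collagen gene COL1A1 on 28, COL3A1 on 0 to 5 and the endothelial gene PECAM1 on 6. Between 58.9% and 70.6% of probes were well above background in the vehicle channel and between 56.3% and 70.8% in the BMP4 channel. ID1, a classical BMP target, rose in 5 of 5 lines. The late rise, here the mean log2 ratio of BMP4 to vehicle at 3, 6, 12 and 24 h minus that at 30 min, was 1.02 ± 0.13 (SE) for ID1 (limma, adjusted p = 0.000507). HCC1419, MDA-MB-361 and SK-BR-3 shared no scan day with another line, so for these lines scan day and line cannot be told apart, and of 7 scan days only 1, with 3 arrays each of HCC1954 and ZR-75-30, held more than 1 line.

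In the values given here, SMAD9 alone of the 11 member probes reached 2-fold induction on more than 2 arrays, and only in MDA-MB-361. The study, with its own processing of the same arrays, counted 11 upregulation events for SMAD9. A line has 6 arrays, so those events fell in more than 1 line. The restriction to MDA-MB-361 thus holds for this processing, whose offset understates folds near background. The probe lies on the minus strand of chromosome 13 (hg18, chr13:36320813-36320872). In order of time from 30 min to 24 h, the log2 ratio in MDA-MB-361 was 0.07, 0.09, 1.16, 1.64, 1.73 and 1.85. The step came between 1 and 3 h, and the last value corresponded to a 3.59-fold higher signal with BMP4. Only 2 of the 11 member probes, SMAD9 and the second SMAD1 probe, were at least 2-fold up on any array, as were 3.96% of all probes. Over all probes, 21 (0.0512%) were at least 2-fold up on 4 or more of the 6 MDA-MB-361 arrays.

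The SMAD9 and SMAD5 promoters are shown because SMAD9 was the member with the largest ratios and SMAD5, which acts beside it under the same receptors, moved little. Both stretches are the 250 bases before the RefSeq transcription start (GRCh38.p14), read 5′ to 3′ on the strand of the gene, SMAD9 from chr13:36920239-36920488 on the minus strand and SMAD5 from chr5:136132595-136132844 on the plus strand.
SMAD9: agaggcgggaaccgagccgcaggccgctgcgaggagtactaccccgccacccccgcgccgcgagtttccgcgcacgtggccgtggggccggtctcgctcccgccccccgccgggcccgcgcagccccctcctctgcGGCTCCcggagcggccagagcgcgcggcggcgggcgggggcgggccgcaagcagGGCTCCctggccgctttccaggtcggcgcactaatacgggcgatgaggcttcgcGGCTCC
SMAD5: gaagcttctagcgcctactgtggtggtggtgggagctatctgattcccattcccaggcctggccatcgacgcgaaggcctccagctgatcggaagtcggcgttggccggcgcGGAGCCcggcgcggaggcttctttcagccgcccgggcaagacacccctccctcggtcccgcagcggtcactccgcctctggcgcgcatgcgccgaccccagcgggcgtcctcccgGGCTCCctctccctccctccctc
Capitals mark matches to the motifs searched on both strands, with overlaps allowed. The motif GGCGCC is known from BMP response elements, and a looser form of it is GGAGCC, whose other strand reads GGCTCC. The motif GTCTAGAC is the palindromic SMAD binding element, and the shorter form CAGACA reads TGTCTG on the other strand. SMAD9 held 3 matches to GGAGCC, the nearest directly before the start, and SMAD5 held 2. Neither held the other motifs. Among the members not shown, SMAD1, SMAD2, SMAD3 and SMAD4 each held GGCGCC before at least 1 of their starts. Of 35116 promoters of this length, 30.6% held GGAGCC, 16.4% GGCGCC, 13.6% CAGACA and 0.182% GTCTAGAC. The matches are a description of the letters and not of binding sites.

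**Figure D1:**
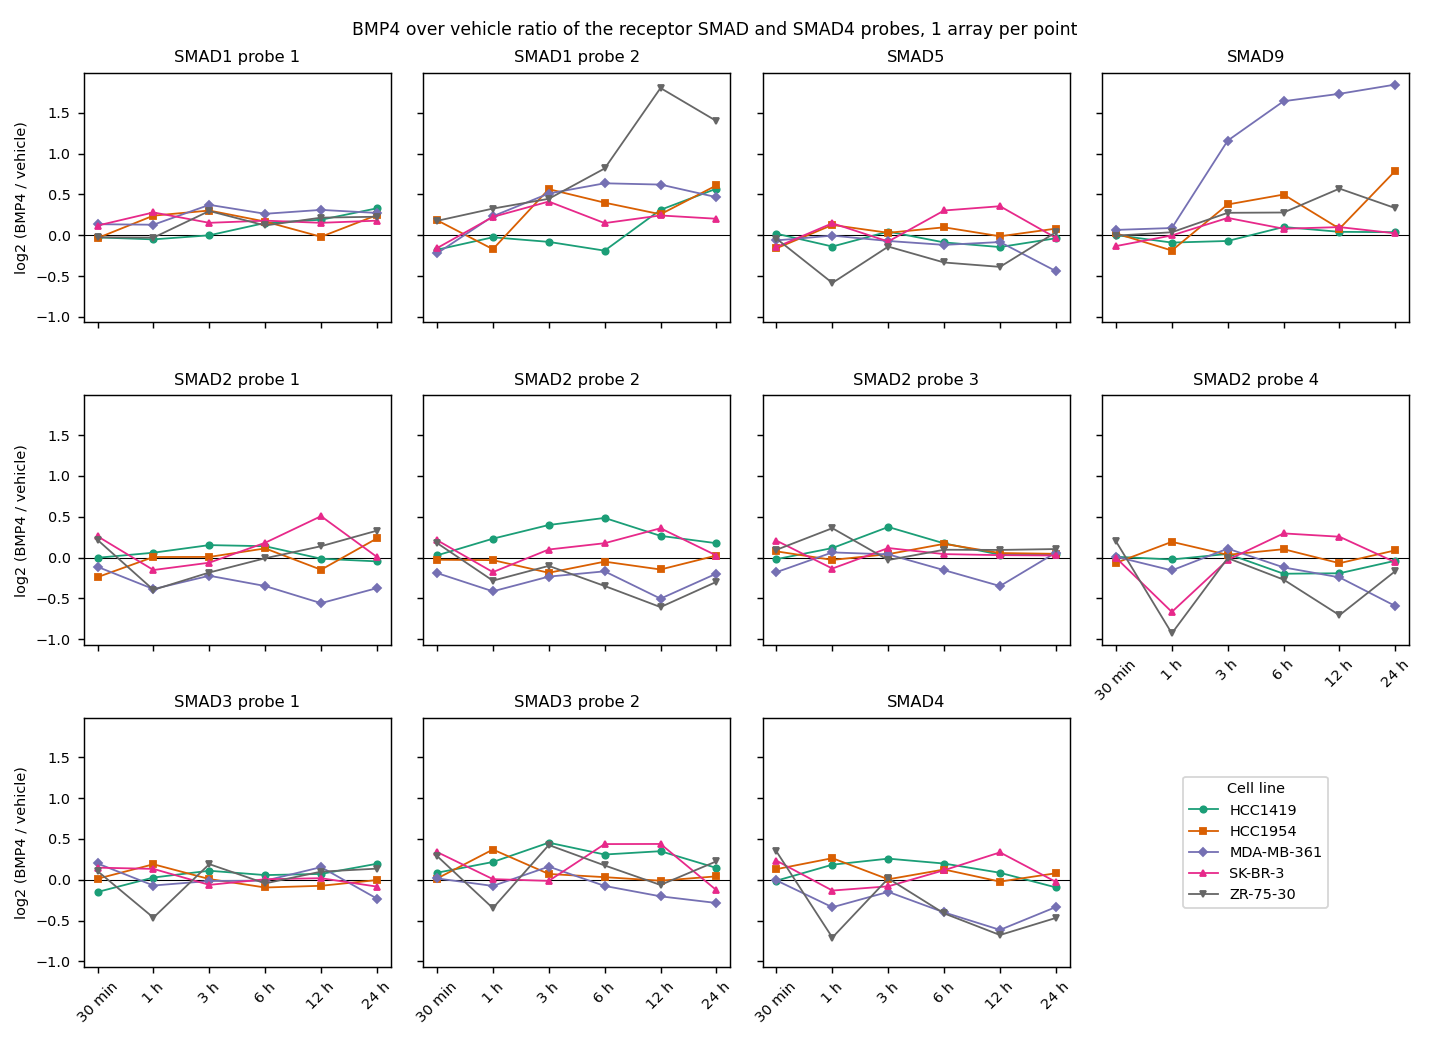
Log2 ratio of BMP4 to vehicle (vertical axis) at the 6 time points (horizontal axis) for each of the 11 probes, with 1 array per point and 1 colour per cell line. SMAD9 in MDA-MB-361 rises to 1.85 and the second SMAD1 probe in ZR-75-30 to 1.80, whereas most other values lie within 0.5 of 0.

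In the other 4 lines the SMAD9 ratios were smaller and unequal. HCC1954 had, in the same order of time, 0.02, -0.19, 0.38, 0.50, 0.08 and 0.79. ZR-75-30 had 0.00, 0.04, 0.28, 0.28, 0.57 and 0.33. All 4 late values lay above both early ones in each of these lines, as in MDA-MB-361. SK-BR-3 had -0.13, 0.00, 0.21, 0.08, 0.10 and 0.02, where the early and late values did not overlap either but nearly touched. HCC1419 had 0.00, -0.09, -0.07, 0.10, 0.04 and 0.04, and its early and late values overlapped. The share of all probes whose early and late values do not overlap was not computed. The response of SMAD9 was known beforehand, so these orders are a description and support nothing. The late values of MDA-MB-361, 1.16 at the lowest, all lay above the highest late value of any other line, 0.79.

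The late rise of SMAD9 was 1.53 in MDA-MB-361, and 0.41, 0.37, 0.24 and 0.03 in HCC1954, ZR-75-30, SK-BR-3 and HCC1419. All were above 0. Over the 5 lines the limma fit gave a late rise of 0.51 ± 0.16 (SE), with a 95% confidence interval of 0.18 to 0.85. This SE and interval come from the residual spread of the 30 arrays in the fit. They do not measure the spread of the 5 line values. The late rise over the lines was not called (limma, adjusted p = 0.664). Without MDA-MB-361 the late rise was 0.26 ± 0.10 (SE; limma, adjusted p = 1.00). With the ratios of the array software in place of the background model used here the late rise was 1.12 ± 0.21 and was called (limma, adjusted p = 0.0296), and with the deposited value table it was 1.13 ± 0.20 (limma, adjusted p = 0.0110).

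The response of SMAD9 in some lines was known when the genes were taken, so its differences between lines are given as a description and support nothing. The limma F test of the ratio between lines called 5 of the 11 member probes, SMAD9 among them, and 22.2% of all probes. In this test the 6 time points of a line stand in for replicates. Its p-values therefore do not measure the spread of a line over repeated experiments. The SMAD9 difference was not called without MDA-MB-361 or when each array was scaled by 1 factor and not by loess. The same test of the late rise, with 30 min and 1 h together as the reference, called no member and 0.00732% of all probes. At an unadjusted p under 0.05 there was 1 member, SMAD9, against 5.41% of all probes. Its F value there was 14.6, and 1.91 without MDA-MB-361. It was called with array weights and without HCC1954 and under no other alternative. As a description, with the line picked because its values were known to be high, the late rise in MDA-MB-361 exceeded the mean of the other lines by 1.24 ± 0.17 (SE).

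The higher ratio in MDA-MB-361 came with a higher signal in the BMP4 channel and not with a lower one in the vehicle channel. The log2 vehicle signal there was 6.97 and 7.01 on the 2 early arrays and between 7.18 and 7.49 on the 4 late ones. The log2 BMP4 signal averaged 8.94 over the late arrays, against a vehicle mean of 7.35. The early and the late arrays of MDA-MB-361 lay on different slides of 1 scan day, so slide and the step after 1 h cannot be told apart in this line. In bulk RNA, more cells with the transcript and more transcript per cell cannot be told apart either.

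SMAD9 was the dimmest member. It was well above background in the vehicle channel on 23 of 30 arrays and in the BMP4 channel on 22. All 6 arrays of HCC1954 and of MDA-MB-361 passed in both channels. HCC1419 passed on 1 of 6 arrays in each channel, the 30 min array, and SK-BR-3 on 4 of 6. The small ratios of HCC1419 and of the early SK-BR-3 arrays were thus measured close to background. Within 1 scan day, the difference between late arrays and 30 min was 1.53 in MDA-MB-361 (4 late arrays), 0.43 in ZR-75-30 (2 late arrays), 0.06 in HCC1954 (1 late array) and 0.03 in HCC1419 (4 late arrays). In HCC1954 the high values at 3, 6 and 24 h came from a scan day other than that of the 30 min array. The part of scan day in that result was not tested. SK-BR-3 gave no value, since its early and late arrays were scanned on different days.

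**Figure D2:**
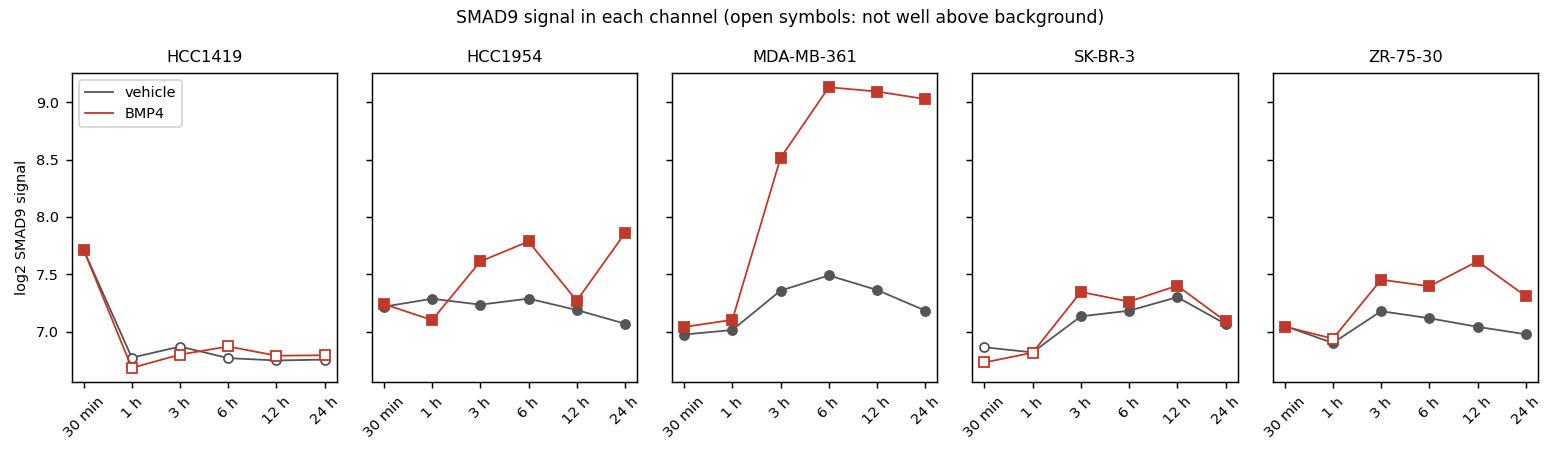
Log2 signal of the SMAD9 probe after normalisation between arrays (vertical axis) at the 6 time points (horizontal axis) in vehicle-treated cells (grey) and BMP4-treated cells (red) of each line. Open symbols are not well above background. The channels part after 1 h in MDA-MB-361, where the BMP4 signal averages 8.94 over the late arrays, and run close together in HCC1419 and SK-BR-3.

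The 10 probes with the ratio pattern most like that of SMAD9 were taken by Pearson r over the 30 arrays among 26081 detected probes. TCF7L2, a transcription factor of the WNT pathway, had r = 0.84, and TBX3, a T-box transcription factor, had r = 0.80. WNT11, a WNT ligand, had r = 0.79, as did CACNA1G, a calcium channel subunit, and GARNL3. SLFN5 had r = 0.83 and FLJ23556 r = 0.82. The other 3 were known on the array only by transcript codes, THC2537219 (r = 0.84), THC2727290 (r = 0.81) and CA414006 (r = 0.79). Some of the probes lie near each other (hg18). THC2537219 starts at chr17:30620916 and SLFN5 at chr17:30610486, and FLJ23556 starts at chr10:114822964 and TCF7L2 at chr10:114915968. The 10 probes may thus not stand for 10 separate genes. TCF7L2 had a late rise of 0.95 in MDA-MB-361 against 0.04 to 0.28 elsewhere, and that of WNT11 was 0.62 against 0.01 to 0.31. Of the 10 probes, 9 had a higher late rise in MDA-MB-361 than in any other line, GARNL3 being the exception. Without the MDA-MB-361 arrays r was lower for all 10, from 0.09 (TCF7L2) to 0.74 (THC2537219) over 24 arrays, with 0.69 for WNT11 and 0.40 for TBX3. All points share their arrays. The probes were picked on arrays that include MDA-MB-361, where SMAD9 was highest. A high late rise in that line and a lower r without it follow in part from the picking and support nothing.

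SMAD1, which the BMP receptors also phosphorylate, had smaller ratios that were above 0 at 24 h in all 5 lines. Its probes lie 1186 bases apart on chromosome 4 (hg18, chr4:146698483-146698542 and chr4:146699669-146699728). At 24 h the ratio of the first probe was 0.33 in HCC1419, 0.27 in MDA-MB-361, 0.25 in HCC1954, 0.23 in ZR-75-30 and 0.18 in SK-BR-3. The values were all above 0 and close to each other. Their mean of 0.25 ± 0.06 (SD, n = 5) was called against 0 (limma, adjusted p = 0.00757), as was that at 3 h, 0.22 ± 0.15 (SD; limma, adjusted p = 0.0418). The second probe had 0.57, 0.47, 0.61, 1.40 and 0.20 in the same lines at 24 h, with a mean of 0.65 ± 0.45 (SD; limma, adjusted p = 0.0471). These were the 3 calls among 66 tests of a member at a time point. Their p-values rest on the residual spread of all 30 arrays, fitted without the line. They do not measure the SD of the 5 lines at a time point. Over all probes 0.349% were called at 3 h and 1.58% at 24 h. At the remaining time points 0 member probes were called by limma, where 0.0805% (30 min), 0.973% (1 h), 0.176% (6 h) and 0.463% (12 h) of all probes were, and at an unadjusted p under 0.05 limma picked 0, 2, 3 and 3 member probes at these times, where it picked 7.09%, 14.3%, 6.96% and 12.0% of all probes.

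The 3 h call of the first SMAD1 probe was lost when any line but HCC1419 was left out (limma, adjusted p between 0.110 and 0.218), and the 24 h call of the second when any line was (limma, adjusted p between 0.0664 and 0.188). The 24 h call of the first probe was kept whichever line was left out. When each array was scaled by 1 factor and not by loess, none of the 3 was called, with means of 0.49 (first probe, 24 h), 0.25 (first probe, 3 h) and 0.83 (second probe, 24 h). With the deposited value table the calls of the first probe were lost at 24 h (limma, adjusted p = 0.0641) and at 3 h (limma, adjusted p = 0.0978), and the 3 h call also when dim probes were left out (limma, adjusted p = 0.0687). A ratio against 0 also holds any dye bias of the probe, since the dyes were not swapped. A late rise does not hold a bias that is equal on all arrays. That of the first probe was 0.17 ± 0.05 (SE; limma, adjusted p = 0.667) and that of the second 0.55 ± 0.14 (SE; limma, adjusted p = 0.287). Each was above 0 in 5 of 5 lines, from 0.05 to 0.24 for the first probe and from 0.27 to 0.94 for the second. With 30 min and 1 h together as the reference, the first probe had -0.03 in SK-BR-3.

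The second SMAD1 probe parted from the first in ZR-75-30. From 30 min to 24 h it had 0.18, 0.33, 0.45, 0.82, 1.80 and 1.40 there. The first probe had -0.02, -0.03, 0.30, 0.12, 0.22 and 0.23 on the same arrays. The second reached 2-fold on 2 arrays and the first on 0, and 2.25% of all probes did so on at least 1 array of this line. Over the 30 arrays the ratios of the 2 probes had r = 0.42, and the ratio of the second differed between lines (limma, adjusted p = 0.0135) while that of the first was not called (limma, adjusted p = 0.354). The difference of the second was not called without ZR-75-30 (limma, adjusted p = 0.196), without MDA-MB-361 (limma, adjusted p = 0.0947) or without HCC1419 (limma, adjusted p = 0.0538). Within a scan day of ZR-75-30 the difference between the 3 and 12 h arrays and the 30 min array was 0.95 for the second probe and 0.28 for the first. In HCC1954 both probes held their late rise mostly across scan days. Within the day of the 30 min array, which held 1 late array, the first had 0.02 and the second 0.07.

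SMAD5, which acts beside SMAD1 and SMAD9, showed no common direction (hg18, chr5:135541281-135541340). Its late rise was 0.03 ± 0.09 (SE), with a 95% confidence interval of -0.16 to 0.21, and was above 0 in 2 of 5 lines. Values ran from -0.58 in ZR-75-30 at 1 h to 0.36 in SK-BR-3 at 12 h. The late rise was 0.28 in SK-BR-3 and 0.21 in HCC1954, against -0.16 in ZR-75-30, -0.11 in MDA-MB-361 and -0.08 in HCC1419. The lines with the highest and lowest SMAD9 response, MDA-MB-361 and HCC1419, thus both lay just below 0 for SMAD5.

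**Figure D3:**
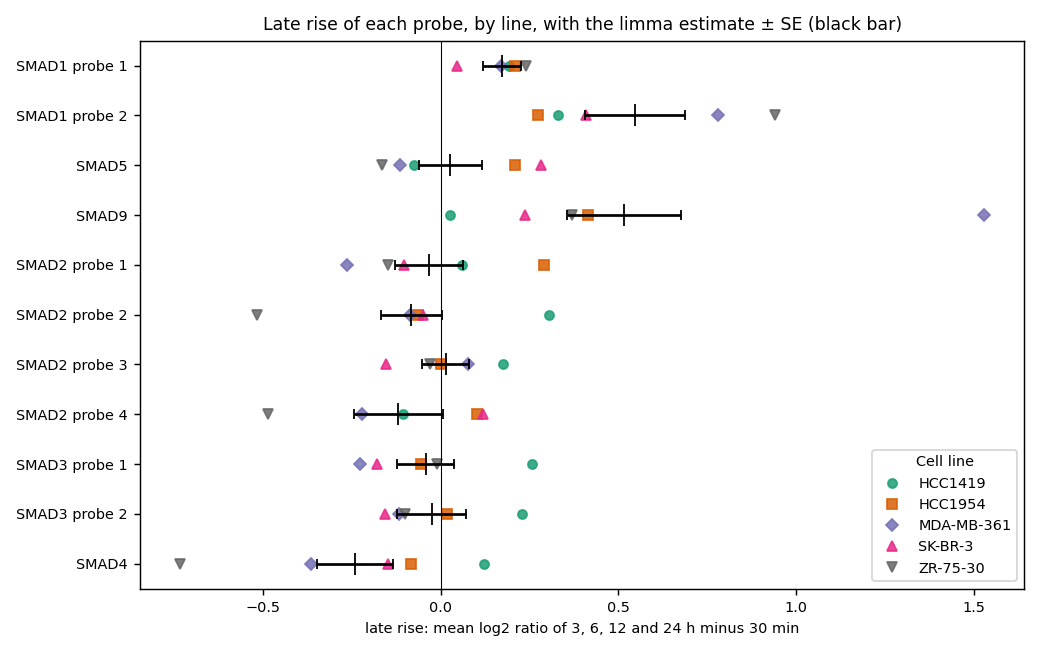
Late rise of each of the 11 probes, the mean log2 ratio at 3, 6, 12 and 24 h minus that at 30 min (horizontal axis), with 1 coloured point per line and the limma estimate with its standard error as a black bar. All 5 lines lie above 0 for SMAD9 and both SMAD1 probes, with MDA-MB-361 at 1.53 for SMAD9, and the other probes spread to either side of 0.

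The receptor SMADs of the TGF-beta branch, SMAD2 and SMAD3, changed little over time. The 4 SMAD2 probes lie with their starts within 11559 bases on the minus strand of chromosome 18, and had late rises of -0.03 ± 0.10, -0.08 ± 0.09, 0.01 ± 0.07 and -0.12 ± 0.13 (SE). Every interval held 0, the widest running from -0.38 to 0.14. The 2 SMAD3 probes on chromosome 15 had -0.04 ± 0.08 and -0.03 ± 0.10 (SE). The first SMAD2 probe, the second SMAD3 probe and the SMAD4 probe are printed at 10 spots per array, and the spots of an array had a median SD of 0.06, 0.08 and 0.06. The highest SD over the spots of an array was 0.18.

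The SMAD2 ratio differed between lines on its 2 brightest probes (limma, adjusted p = 0.0278 and 0.00292), the first of which was not called with the deposited value table (limma, adjusted p = 0.0533). In MDA-MB-361 the first probe was below 0 on all 6 arrays, from -0.56 to -0.11, and the second from -0.50 to -0.17. HCC1419 had the second probe above 0 on all 6 arrays, from 0.03 to 0.48. The 2 probes parted in ZR-75-30, where the first had 0.14 at 12 h and 0.33 at 24 h and the second -0.61 and -0.30. Their ratios had r = 0.55 over the 30 arrays. The 2 dimmer SMAD2 probes were not called between lines (limma, adjusted p = 0.177 and 0.300).

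SMAD4, the common partner, had the lowest late rise of the members, -0.24 ± 0.11 (SE; limma, adjusted p = 0.964), and 4 of 5 lines were below 0. It was -0.12 without ZR-75-30 and below 0 under all 15 alternative settings. The late rise was -0.73 in ZR-75-30, -0.37 in MDA-MB-361, -0.08 in HCC1954 and -0.15 in SK-BR-3, against 0.12 in HCC1419. These values rest on the 30 min array of each line. With 30 min and 1 h together as the reference, ZR-75-30 and MDA-MB-361 each had -0.20 and HCC1954 had -0.15. SK-BR-3 then had 0.04 and HCC1419 0.03. None of the 15 settings used that reference for this late rise. The ratio differed between lines (limma, adjusted p = 0.0141). From 30 min to 24 h, ZR-75-30 had 0.35, -0.71, 0.02, -0.41, -0.68 and -0.47. MDA-MB-361 had -0.01, -0.34, -0.15, -0.40, -0.61 and -0.33. Both lines were low at 1 h, rose again at 3 h and were low at 12 h. None of the 5 probes called between lines, SMAD9 included, was called without MDA-MB-361 or with 1 scaling factor per array, and then 0.234% and 0.0122% of all probes were called.

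The ZR-75-30 array at 1 h was low for many members. SMAD4 (-0.71), SMAD5 (-0.58), the fourth SMAD2 probe (-0.93) and both SMAD3 probes (-0.46 and -0.35) had their lowest value of the 30 arrays there, 5 of 11 member probes. Of all probes, 11.5% had their lowest value on that array. The SD of the log2 ratio over all probes was 0.35 there, against 0.12 on the narrowest array. It was higher still at 12 h in ZR-75-30 (0.39) and SK-BR-3 (0.37), where 10.3% and 10.5% of all probes had their lowest value. The 12 h array of ZR-75-30 also gave the second SMAD1 probe its 1.80 and SMAD4 its -0.68. The part of these arrays in the differences between lines was not tested.

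Counted together, 0 of 11 member probes were called for a late rise (0.0927% of all probes) and 0 for a change over time (0.0902%). At an unadjusted p under 0.05 in limma, 3 had a higher and 1 a lower late ratio, where 3.37% of all probes were higher and 1.62% lower, and 3 changed over time against 4.20%. The 3 were SMAD9 and both SMAD1 probes. The median late rise was -0.03 for the members and 0.01 for all probes.

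The partners and regulators of the SMADs were represented by 79 probes for 42 genes, of which 1 was called for a late rise, as were 0.0927% of all probes. This was SMAD6, an inhibitory SMAD that blocks BMP receptor signalling, with 0.75 ± 0.11 (SE; limma, adjusted p = 0.00164) and a rise in 5 of 5 lines, from 0.43 to 1.20, the last in MDA-MB-361. It was also called over time (limma, adjusted p = 0.0122). The order of lines thus had MDA-MB-361 at the top for both SMAD6 and SMAD9, and over the 30 arrays their ratios had r = 0.77. The r without MDA-MB-361, the highest line for both, was not computed. SMAD7, the other inhibitory SMAD, had 0.25 ± 0.09 (SE; limma, adjusted p = 0.826) and had r = -0.08 with SMAD9. Next to SMAD6 the largest late values were those of SKIL, a corepressor of SMADs, at 0.49 ± 0.12 (SE; limma, adjusted p = 0.193) and of BAMBI, a pseudoreceptor, at 0.46 ± 0.12 (SE; limma, adjusted p = 0.246). At an unadjusted p under 0.05, 13 of the 79 probes were higher and 1 lower, where 3.37% and 1.62% of all probes were, and the median was 0.00 against 0.01. The late rise of SKIL was above 0 in 5 of 5 lines, those of SMAD7 and BAMBI in 4. When single time points were tested against 0 by limma, SMAD6 was called from 3 h on, SKIL for 3 and 24 h, and SMAD7 for 1 h only. The fourth HGS probe was called from 1 h on, the second IPO7 probe for 1 h and the first MECOM probe for 12 h. Such a ratio also holds any dye bias. The late rise leaves out the 1 h arrays, so it cannot show a response confined to them.

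In cells that received vehicle alone, the lines differed in SMAD level on 8 of 11 probes (limma F test), where 73.1% of all probes differed. Levels are log2 Cy3 signals of 6 vehicle arrays per line and are compared between lines for 1 probe only. The 6 arrays are the 6 time points of a line, which stand in for replicates. The pairs of lines are called in the same fit, and the shares of all probes called were 44.3%, 49.5%, 47.8% and 43.3% for ZR-75-30, HCC1954, SK-BR-3 and MDA-MB-361 against HCC1419. They were 40.9%, 51.3% and 45.5% for ZR-75-30, MDA-MB-361 and SK-BR-3 against HCC1954, 46.8% and 54.0% for ZR-75-30 and SK-BR-3 against MDA-MB-361, and 43.6% for ZR-75-30 against SK-BR-3. SMAD3 had the largest differences. Its first probe had 11.4 ± 0.32 (SD) in HCC1954 and 11.3 ± 0.21 in ZR-75-30, a pair that was not called, then 9.63 ± 0.27 in MDA-MB-361, and 8.76 ± 0.19 and 8.87 ± 0.38 in HCC1419 and SK-BR-3. The step from ZR-75-30 to MDA-MB-361 was above 3-fold (1.68 on the log2 scale) and that from MDA-MB-361 to SK-BR-3 was 1.69-fold, both called, and the last 2 lines were not called against each other. The second probe put the lines into the same 3 levels, with r = 0.97 between the probes over the 30 arrays.

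SMAD5 followed a like order at its top, with 9.43 ± 0.33 in HCC1954, 8.93 ± 0.35 in ZR-75-30, 8.21 ± 0.07 in MDA-MB-361, and 7.97 ± 0.06 and 7.70 ± 0.32 in HCC1419 and SK-BR-3. The first 2 steps in this order were called and the last 2 were not. SMAD1 ran the other way. Its first probe had 12.0 ± 0.11 in HCC1419 and 11.9 ± 0.22 in SK-BR-3, then 11.5 ± 0.13 in MDA-MB-361, 11.04 ± 0.22 in ZR-75-30 and 10.9 ± 0.32 in HCC1954. The lines of the top pair and those of the bottom pair were not called against each other, and MDA-MB-361 was called against all 4. The second probe kept MDA-MB-361 in the middle, with SK-BR-3 first and HCC1954 last.

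SMAD9 itself was not called between lines in the vehicle channel (limma F test, adjusted p = 0.172). It was called with the signals processed by the array software (limma, adjusted p = 0.0201) and without HCC1419 (limma, adjusted p = 0.0441). The means ran from 6.94 ± 0.38 in HCC1419 to 7.23 ± 0.21 in MDA-MB-361, and none of the 10 pairs was called. The 2 bright SMAD2 probes were not called either, with a first-probe range of 11.8 to 12.0, but were with those software values (limma, adjusted p = 0.0145 and 0.0248), under which all 11 member probes and 85.6% of all probes were called. The third SMAD2 probe was highest in SK-BR-3, at 8.59 ± 0.22, 1.19-fold above MDA-MB-361, and the other 3 lines, at 7.66 to 7.68, were not called against each other. The fourth ran from 8.26 ± 0.41 in SK-BR-3 to 7.32 ± 0.11 in HCC1419 with no call between neighbours, and its difference between lines was not called with scan day as a random block (limma, adjusted p = 0.0661). SMAD4 had no called difference between neighbours, from 9.10 ± 0.90 in HCC1954 down to 7.68 ± 0.40 in SK-BR-3.

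In HCC1954 the vehicle level of SMAD4 moved with the scan day. It was 8.09, 8.82 and 8.05 on the arrays of 30 min, 1 h and 12 h, scanned on 1 day, and 9.87, 10.02 and 9.72 on those of 3, 6 and 24 h, scanned on another. The second SMAD1 probe had 10.4, 10.5 and 10.3 on the first of these days and 8.71, 8.64 and 8.77 on the other. The groups did not overlap in either case, and they ran in opposite directions. The ratios of BMP4 to vehicle on the same arrays ran from -0.02 to 0.26 for SMAD4. The part of scan day in these levels was not tested.

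**Figure D4:**
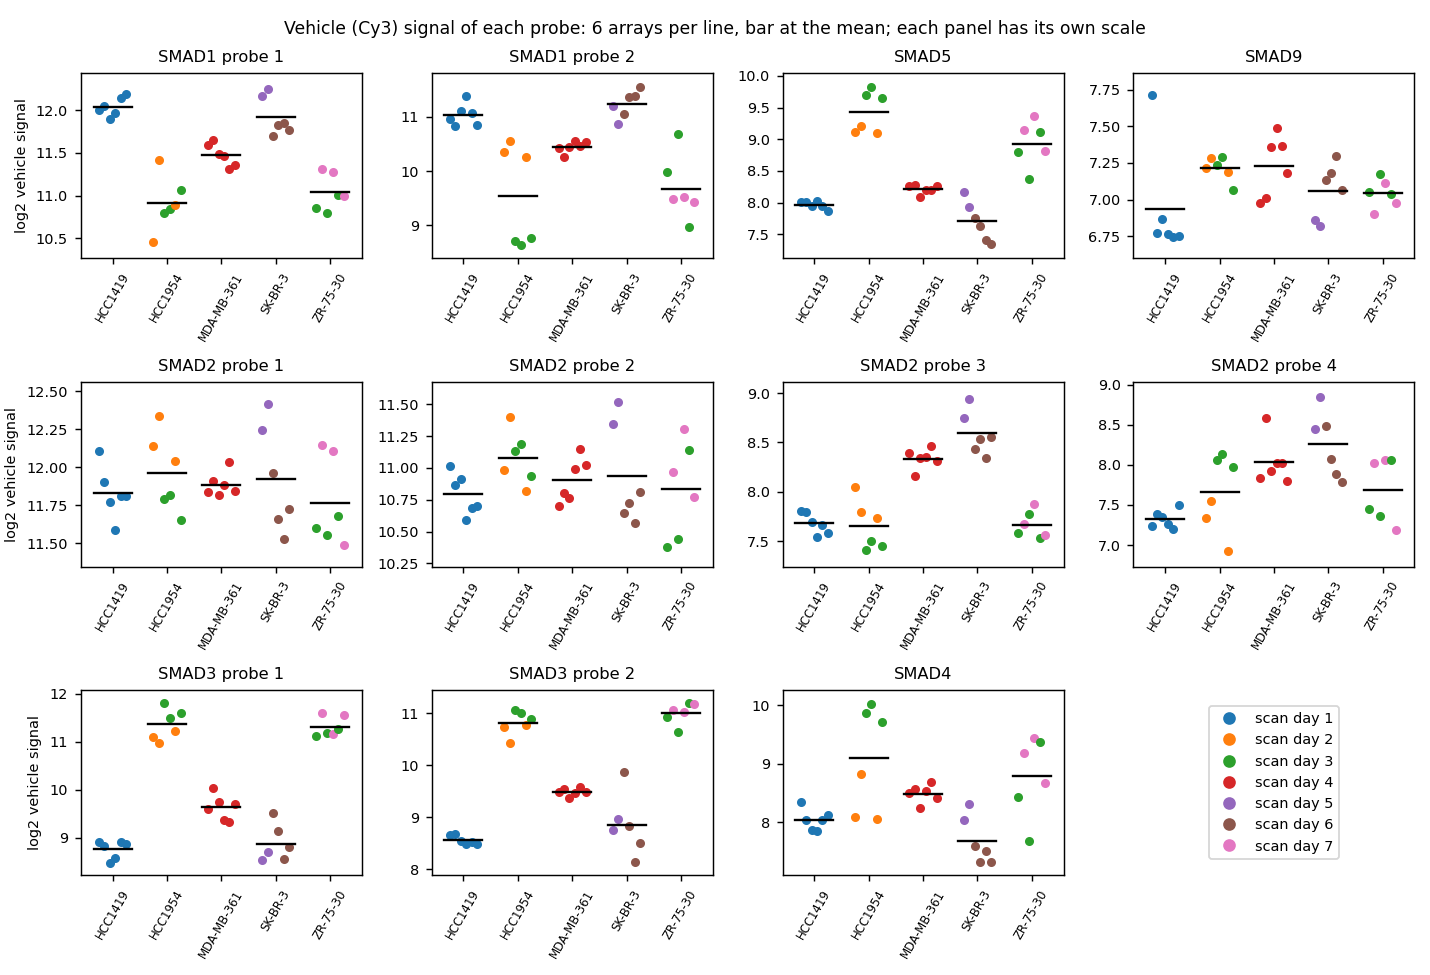
Log2 Cy3 signal of vehicle-treated cells (vertical axis, 1 scale per panel) for each of the 11 probes in the 5 lines (horizontal axis), with 6 arrays per line coloured by scan day and a bar at the mean. SMAD3 falls into 3 levels on both probes, and SMAD9 stays between 6.94 and 7.23 on average. In HCC1954 several probes split by scan day, among them SMAD3, SMAD4 and SMAD5.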

How the data were processed

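The study hybridised BMP4-treated (Cy5) and vehicle-treated (Cy3) RNA of 5 cell lines at 6 time points to 44K human arrays. The authors scanned the arrays and extracted the signals with Feature Extraction, version 9.5.1.1 per the file headers. The study's methods name a different version. The deposited scanner files give mean and background intensity per spot and a log10 ratio, and the deposited value table gives log2 ratios. Depth has no meaning for arrays, and their number limits the precision.

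From the mean and background signals, values were corrected with normexp (offset 50) and loess within arrays, without the 1639 control spots of 45015, in limma 3.58.1 (R 4.3.3). Outlier spots were left out and spots of a probe averaged. Vehicle levels were scaled between arrays by Aquantile. A fold near background is understated by the offset. Tests were limma moderated tests over all 41000 probes with Benjamini-Hochberg adjustment, called at an adjusted p under 0.05. They were each time point against 0, change over time and late rise with the line as a block, ratio and late rise between lines, and vehicle level between lines with 10 pairs. Each line gave 1 replicate number throughout, so the line pairs the arrays. In all tests between lines the 6 time points of a line stood in for replicates. The SE and interval of a late rise come from the residual spread of the fit. Deviations from the time point means had a mean r of 0.232 within a line and -0.0884 between lines. The code was tested on simulated data.

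Named genes were all member probes and the 10 probes most like SMAD9. Of a list of 42 SMAD partners and regulators, SMAD6, SMAD7 and the 3 with the largest late value were named. So were those called against 0, for a change over time or for a late rise. The members and lists were chosen with earlier results of these data known, and the study had ranked genes on the same arrays. The correlation for random blocks was estimated on every 10th probe, and a negative estimate was set to 0. No array column was left unmapped. Probe coordinates are those of the files (hg18), and promoters are from RefSeq (GRCh38.p14). Figures were drawn with matplotlib 3.10.9.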

Additional observations from a re-analysis of the deposited data

Results flagged for a closer look

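Within a time point (5 arrays) or, for vehicle levels, within a line (6 arrays), 8 of 121 groups had an array far from the rest by Dixon's criterion, which chance gives in about 1 of 20. At 6 h the SMAD9 ratio of 1.64 in MDA-MB-361 stood above the next, 0.50. The second SMAD1 probe stood high in ZR-75-30 at 12 h (1.80, next 0.62) and low in HCC1419 at 3 h (-0.081, next 0.41). MDA-MB-361 stood low for SMAD5 at 24 h (-0.44, next -0.04) and for the third SMAD2 probe at 12 h (-0.35, next 0.03). The fourth SMAD2 probe stood high in ZR-75-30 at 30 min (0.20, next 0.01), and its vehicle signal in MDA-MB-361 at 1 h (8.58, next 8.02). The SMAD9 vehicle signal of HCC1419 at 30 min, 7.71, stood above the next, 6.87.

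The ratio differed between lines by the limma F test for 5 probes, SMAD9 (adjusted p = 0.0028, which restates a response known when the genes were taken), the second SMAD2 probe (adjusted p = 0.00292), the second SMAD1 probe (adjusted p = 0.0135), SMAD4 (adjusted p = 0.0141) and the first SMAD2 probe (adjusted p = 0.0278).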

How the results depend on the processing

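Member calls against 0 at a time point, 3 in the values given, became 0 with 1 factor per array, 6 with the software values, 6 with scan day as a fixed block and 5 with the line as a block. The share of all probes called at 24 h, 1.58%, went with them to 0.217%, 2.69%, 3.35% and 4.44%. The calls lay between 1 and 2 with a line left out, and the share below 1.58% each time. Calls for change over time, 0, became 1 with the software values and 1 with the deposited table, and were 0 with no replicate block. Calls for ratio differences between lines, 5, became 0 with 1 factor per array, under which 0.0122% of all probes were called, and lay between 0 and 5 with a line left out (0 without MDA-MB-361). Calls for late rise differences between lines, 0, became 1 with array weights (0.0195% of all probes) and lay between 0 and 1 with a line left out (1 without HCC1954). Calls for vehicle levels, 8, lay between 7 and 11 throughout. The late rise of SMAD9 was past the threshold with the software values (1.12; limma, adjusted p = 0.0296) and the deposited table (1.13; limma, adjusted p = 0.0110), lay between 0.26 and 0.64 with a line left out, was not called without the replicate block (0.51; limma, adjusted p = 1.00), and was above 0 in all 15 alternatives. Scan day and slide as random blocks were chosen after seeing the data and changed no count by over 1.5 times. Scan day as a fixed block could not be fitted for differences between lines, since only 1 scan day held more than 1 line. The causes were not tested. Signal near background limits SMAD9 in HCC1419 and SK-BR-3.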
